A study of Drosophila melanogaster with 3 samples.

Results

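Among subunit genes of oxidative phosphorylation, putzig had a reproducible peak at the start of 61 of 71 main genes and 1 of 17 copies. Over all protein-coding genes 42.6% had one. A wider naming of copies, made after the values had been seen, gave 61 of 64 main genes and 1 of 24 copies. The wider naming is used below except where the 71 and 17 are named. The genes described here are the 88 protein-coding genes, of 13945 in the Ensembl annotation, whose symbols start with ND- (complex I, 40 genes), Sdh (complex II, 8), UQCR (complex III, 9), COX (complex IV, 16) or ATPsyn (complex V, 15). They were chosen by symbol and not by a measured value. The data are chromatin immunoprecipitation and sequencing (ChIP-seq) maps of the strain pzg-GFP of Drosophila melanogaster, from whole embryos of mixed sex aged 0 to 24 h. This line is stably transgenic and carries putzig (pzg) with GFP joined to its C-terminus; the labels do not say what drives the transgene. The 3 samples are biological replicates of 1 group, with no group of another genotype or treatment. Putzig, a chromatin protein with zinc fingers, is known to work with the core promoter factor Trf2, the DNA-binding factor Dref and the nucleosome remodeller NURF. The labels conflict: their free text names an input control for every library, while the antibody field names putzig and the peaks come from each library set against another, control alignment. The samples were read as putzig ChIP-seq. A gene was called bound when a summit of the authors' reproducible peak list lay within 250 bp of any of its annotated transcription start sites (TSSs). Positions are given as summit minus TSS along the gene, so that a negative value lies upstream.

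Oxidative phosphorylation moves electrons from NADH and succinate through complexes I to IV of the inner mitochondrial membrane and uses the resulting proton gradient to make ATP in complex V. Complexes I, III, IV and V are built from proteins of both the nuclear and the mitochondrial genome, and complex II from nuclear genes alone. The genes here are all nuclear. Many have a duplicate elsewhere in the fly genome, and in Drosophila such duplicates of respiratory genes are known mainly from testis-biased expression.

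The promoters of the members differed in which core elements they held, and 7 are shown to set bound promoters of differing strength beside an unbound copy. Capitals mark the DNA replication-related element (DRE) TATCGATA, which Dref recognises, Motif 1 GGTCACAC, an element of housekeeping promoters, and the E-box CAGCTG, each searched on both strands. None of the 3 contains another. Each stretch is given in the direction of the gene, from the RefSeq genome of the same assembly as dm6, and ends with the first 10 transcribed bases of the annotated 5′ end. ATPsynC (chr3R:31219621-31219830, minus strand), whose peak was the strongest of the members after ATPsynF, held Motif 1 well upstream of its summit, which was base 146 of the stretch. COX4 (chr2L:19958563-19958722, plus strand) held a DRE and a Motif 1, with its summit at base 115. ND-B17 (chr2L:15751069-15751228, minus strand) held Motif 1 and an E-box at the start site, with its summit at base 120. ND-15 (chr2L:114576-114735, plus strand) held a DRE and an E-box, with its summit at base 59. ATPsynO (chr3R:15265441-15265600, plus strand) is shown because it had none of these elements in this stretch, though an E-box just downstream of it, and still carried a strong peak, with its summit at base 141. ND-B14.5A (chrX:2172376-2172535, plus strand) held a DRE, with its summit at base 121, and had an E-box just downstream of the stretch. It is shown with its unbound copy ND-B14.5AL (chr3L:22606219-22606378, plus strand), which held a pair of E-boxes and no DRE.
ATPsynC: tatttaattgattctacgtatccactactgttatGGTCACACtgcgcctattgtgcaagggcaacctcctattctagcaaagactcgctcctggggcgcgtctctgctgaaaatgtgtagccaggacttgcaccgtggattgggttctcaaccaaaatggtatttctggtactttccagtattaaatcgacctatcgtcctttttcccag
COX4: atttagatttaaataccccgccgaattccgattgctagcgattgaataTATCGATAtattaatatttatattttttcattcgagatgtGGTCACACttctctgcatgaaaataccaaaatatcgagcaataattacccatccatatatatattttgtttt
ND-B17: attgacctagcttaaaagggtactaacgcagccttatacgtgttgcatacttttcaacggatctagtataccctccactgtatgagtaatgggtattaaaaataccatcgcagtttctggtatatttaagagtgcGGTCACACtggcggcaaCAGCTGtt
ND-15: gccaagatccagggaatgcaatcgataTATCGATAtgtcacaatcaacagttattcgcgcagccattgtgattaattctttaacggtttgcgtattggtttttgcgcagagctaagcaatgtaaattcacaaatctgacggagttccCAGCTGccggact
ATPsynO: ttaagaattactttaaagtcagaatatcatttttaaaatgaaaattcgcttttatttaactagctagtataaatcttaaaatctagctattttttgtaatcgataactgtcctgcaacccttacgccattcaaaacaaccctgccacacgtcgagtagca
ND-B14.5A: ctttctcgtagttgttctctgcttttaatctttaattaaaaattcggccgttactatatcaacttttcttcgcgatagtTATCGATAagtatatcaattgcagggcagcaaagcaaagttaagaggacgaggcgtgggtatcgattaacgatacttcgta
ND-B14.5AL: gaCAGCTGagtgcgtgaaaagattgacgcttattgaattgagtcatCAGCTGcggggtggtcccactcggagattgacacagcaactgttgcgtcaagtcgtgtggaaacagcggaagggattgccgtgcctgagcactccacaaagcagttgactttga

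Of the 88 members, 62 (70.5%) were bound in the reproducible list, where 42.6% of all protein-coding genes were. In the strongest 6522 peaks of each replicate, as many as the reproducible list holds, 62, 62 and 61 members were bound in replicates 1, 2 and 3, or 70.1% ± 0.656 (SD, n = 3). The background in the same lists was 42.4%, 42.3% and 41.7%. Because the lists share 1 length, this SD leaves out any difference between replicates in the number of peaks. Of the 88 members, 58 were bound in every replicate, all of them among the 62. Over all 13945 protein-coding genes 5473 (39.2%) were bound in every replicate, and 5939 in the reproducible list. The other 4 of the 62 were ND-49, ATPsynbeta, COX5B and ATPsyndelta. The first 3 were not bound in replicate 3. ATPsyndelta ranked 6621 in replicate 2 and so fell just outside its strongest peaks. ND-49 and ATPsynbeta lie on chromosome 4, for which replicate 3 lists 75 entries against 201 in replicate 1 and 168 in replicate 2. In replicate 3 the nearest summit of any strength was at -36067 bp for ND-49 and at -527 bp for ATPsynbeta. The part of the shorter chromosome 4 list in their absence was not tested. COX5B missed replicate 3 by its position, with a summit at -251 bp.

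The count of bound members and the background both grew with the window around the TSS. Within 100 bp it was 55, where 35% of all protein-coding genes were bound. Within 500 bp it was 66 against a background of 46.6%, and within 1000 bp 69 against 49.1%. In the pooled list with background entries 65 members were bound, where 55.9% of all protein-coding genes were, and a summit of any strength in any list stood at 69 members, where 64.8% had one.

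Signal is given in the units of the authors' peak caller, whose scale is not named, and was compared only within a list. Rank 1 is the strongest peak of a list. The bound members had a median signal of 1823 in the reproducible list, and all bound protein-coding genes 1517. Their median rank was 1905.5, against 2363 for all bound protein-coding genes. In replicates 1, 2 and 3 the members' median ranks were 1922.5, 1844.5 and 2097, against 2335, 2357 and 2474 for all bound protein-coding genes. The members therefore ranked ahead of the other bound genes at the median in each of the 3 replicates. The range was wide, from 379 for ATPsyndelta to 11496 for ATPsynF.

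By complex, the median rank in the reproducible list was 1197 in complex IV, 1222 in complex III, 1622 in complex V, 2022 in complex I and 2582.5 in complex II. Replicates 1 and 2 gave the same order. Replicate 3 put complex III first at 1031, then complex V at 1061.5 and complex IV at 1523. Complexes I and II came last in all 3 replicates, with median ranks of 2372 and 3166.5 in replicate 3. The places of complexes III, IV and V thus did not hold over the replicates. The ranges of all 5 complexes overlapped.

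**Figure D1:**
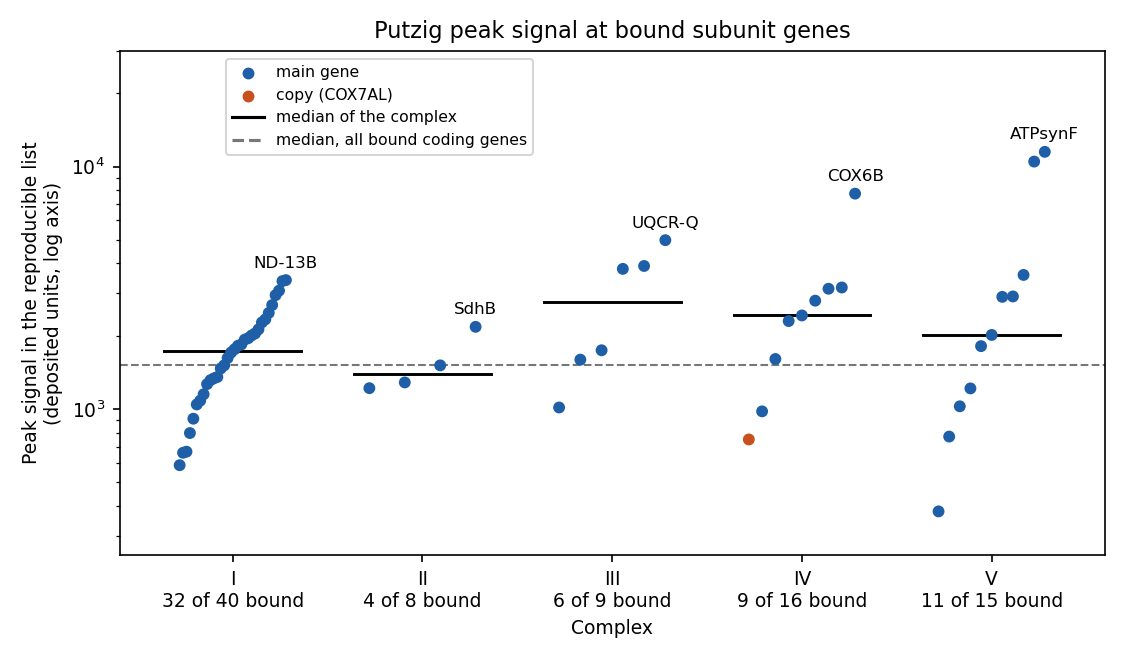
Peak signal in the reproducible list (log axis, deposited units) for the bound members of each complex; each point is 1 gene, black bars are medians, and the dashed line is the median of 1517 over all bound protein-coding genes. Complex V spans the widest range, from 379 to 11496, and the 4 bound genes of complex II lie between 1221 and 2185.

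**Figure D2:**
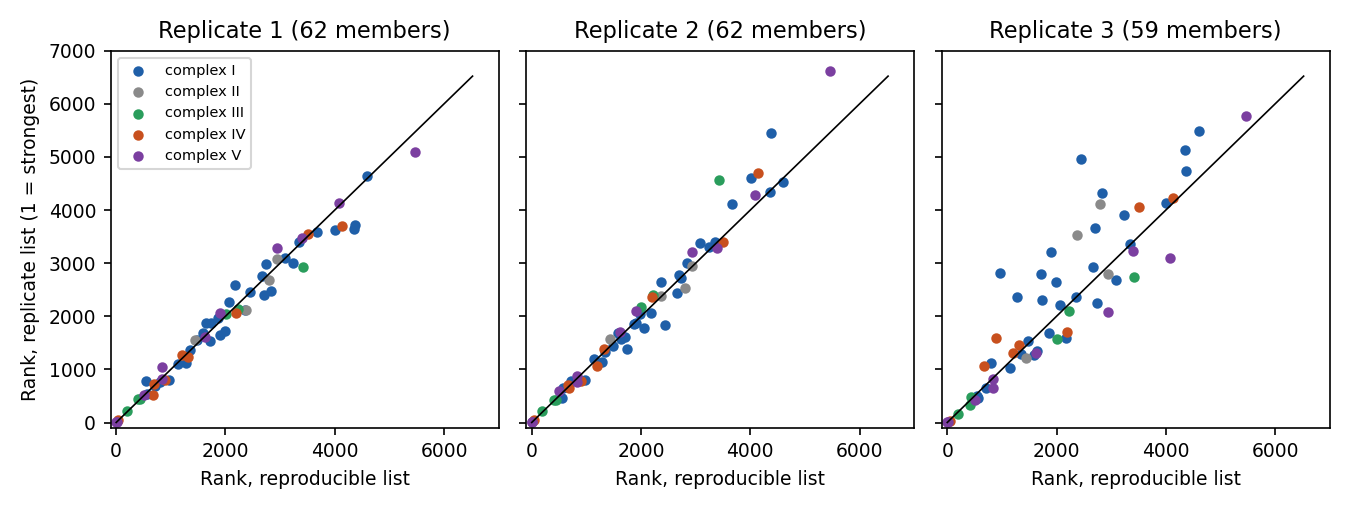
Rank of the strongest peak within 250 bp of each bound member's start site in each replicate list (vertical axis) against the reproducible list (horizontal axis), where rank 1 is the strongest and the line marks equal ranks. Replicates 1 and 2 lie close to the line for 62 members, and replicate 3 scatters more widely over the 59 members it lists there.

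Complex I takes electrons from NADH. Of its 34 genes that are not copies, its main genes, 32 were bound. Its 7 nuclear core genes encode the conserved subunits of the arm in the matrix, most of which hold the iron-sulphur or flavin groups that carry the electrons. Of these 5 were bound, as were all 27 accessory genes. The roles were assigned after the values had been seen. The median signal was 1765 over the 5 bound core genes and 1713 over the 27 accessory ones. ND-20 led the core genes with a signal of 2952 and ranks of 766, 788 and 1129 in replicates 1, 2 and 3. ND-51, the flavin-binding subunit, followed at 2346, with ranks of 1114, 1143 and 2368. The NADH-side subunits ND-24 and ND-75 had signals of 1765 and 1085, and ND-49 had 914. Replicate 3 ranked each of these 4 lower than replicates 1 and 2 did, or listed no peak.

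The strongest genes of complex I were accessory. ND-13B had a signal of 3405 on chromosome 3L, from 10693903 to 10694300 in dm6, and replicate signals of 1350, 1455 and 609 at ranks 781, 471 and 496. ND-B8 had 3372 and ranks of 541, 659 and 466, and ND-PDSW had 3080 and ranks of 695, 778 and 655. None of these 3 genes ranked below 781 in any replicate. ND-MWFE had a signal of 2687 and ranked 808 and 806 in replicates 1 and 2 but 2814 in replicate 3. ND-ASHI, at 1473, ranked 2459, 1840 and 4960. ND-ACP, the acyl carrier protein, also known from mitochondrial fatty acid synthesis, had 1936. ND-MLRQ, whose mammalian counterpart has been assigned to complex IV, had 798. The weakest were ND-42, ND-AGGG and ND-B14 with 668, 662 and 588. ND-B14 ranked 4645, 4525 and 5483, but its replicate 3 summit lay at 250 bp, the edge of the window. A nearer summit in replicate 3, at 49 bp, ranked 6580, outside the strongest peaks.

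Complex II, succinate dehydrogenase, also belongs to the citric acid cycle. Its catalytic genes SdhB, the iron-sulphur subunit, and SdhA, the flavoprotein, had signals of 2185 and 1516. SdhB had replicate signals of 949, 834 and 383 at ranks 1554, 1571 and 1214. SdhA ranked 2119, 2391 and 3529, lowest in replicate 3. Of the membrane anchor genes, SdhD was bound at 1289 and SdhC was not. Sdhaf3 shares the prefix but encodes an assembly factor and not a subunit; it had a signal of 1221, so that 3 of the 4 main subunit genes were bound.

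Complex III passes electrons from ubiquinol to cytochrome c, and all 6 of its main genes were bound in the reproducible list and in each replicate. UQCR-Q led with a signal of 4973 (3L, 17474764 to 17475278) and replicate signals of 2182, 1886 and 920 at ranks 217, 217 and 166. UQCR-14 and the core protein gene UQCR-C2 followed at 3892 and 3787, and neither ranked below 481 in any replicate. The other core protein gene, UQCR-C1, had 1749. UQCR-6.4 had 1601 and UQCR-11 1017, and UQCR-11 ranked 2933, 4566 and 2744, lowest in replicate 2.

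Complex IV, cytochrome c oxidase, reduces oxygen to water. All 8 main genes were bound in the reproducible list. COX6B stood far above the others with a signal of 7733 (X, 19744066 to 19744691) and replicate signals of 3459, 2775 and 1531 at ranks 42, 51 and 30. COX5A had 3174, COX5B 3136, COX7B 2801, COX7A 2435 and COX4 2308. COX8 had 1610 and COX7C 980. COX5B held 2 reproducible summits within the window: the stronger lay at -243 bp of COX5B and at -55 bp of IFT52 on the other strand, and the weaker, with a signal of 1524, lay at -39 bp of COX5B itself.

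Complex V, the ATP synthase, held the strongest member peaks. ATPsynF, a gene of the membrane part, had a signal of 11496 (2R, 24599521 to 24600193) and replicate signals of 5275, 4244 and 2086 at ranks 4, 6 and 7. ATPsynC, the ring subunit that turns in the membrane, had 10482 (3R, 31219282 to 31220027), with replicate signals of 4613, 3860 and 2041 at ranks 13, 14 and 9. Both were therefore among the 14 strongest peaks of each replicate. The other genes of the membrane part were weaker, ATPsynE at 2023 and ATPsynG at 771. The peripheral stalk genes ATPsynD, ATPsynO, ATPsynB and ATPsynCF6 had 3575, 2915, 2904 and 1218. ATPsynbeta, which carries the catalytic sites, had 1819 (4, 1031601 to 1032069) and ranked 2067 and 2097 in replicates 1 and 2. The rotor genes ATPsyngamma and ATPsyndelta had 1028 and 379, and ATPsyndelta was the weakest bound member of all. The genes of this complex thus spanned ranks 4 to 5461 of the 6522 in the reproducible list.

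The main genes that were unbound had a summit just outside the window. The nearest reproducible summit lay at -297 bp of ND-23, at -441 bp of ND-30 and at -343 bp of SdhC, with signals of 689, 687 and 1926. ND-23 had its own summits within the window in replicate 2, at -188 bp with rank 4461, and in replicate 3, at -69 bp with rank 6379. ND-30 had a summit at 22 bp with rank 4026 in replicate 3. For SdhC, replicates 1 and 2 also placed the nearest summit at -343 bp, and replicate 3 listed a weak one at 9 bp with rank 6797. Within 500 bp all 64 main genes had a reproducible summit.

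The copies differed. By the rule that a copy's symbol ends in L, T or -like and gives another gene's symbol without that ending, 71 members are main genes and 17 are copies. Of the 71 main genes 61 were bound, against 1 of the 17 copies. No symbol ended in T or -like. In the replicates the main genes were bound in 85.4% ± 0.813 (SD, n = 3) and the copies in 5.88% in each, a difference of 79.6 ± 0.813 percentage points that was positive in 3 of 3 replicates. The 71 include 7 genes of the same kind that this rule does not reach, because the symbol ends in a digit (ND-51L1, ND-51L2, COX6AL2, COX7AL2) or because the main gene has a name of its own (COX6AL for levy, COX6CL for cype, ATPsynepsilonL for sun). None of the 7 was bound. Counted with the copies they give 61 of 64 main genes bound, against 1 of 24 copies. This wider split was made after the values had been seen. ND-MNLL ends in L after its amino acids and is a main gene; it was bound with a signal of 1340.

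In 22 of the 24 pairs the main gene was bound and the copy was not. In the SdhC and SdhCL pair neither was bound, and in the COX7A and COX7AL pair both were. COX7A had a signal of 2435 and COX7AL 751. COX7AL ranked 3708, 4700 and 4219 in replicates 1, 2 and 3. Its summit lay at -154 bp, and with each summit given to its nearest TSS only, no copy was bound. In complex III, UQCR-14 had a signal of 3892 and the nearest reproducible summit to UQCR-14L was at 32525 bp. UQCR-6.4 had 1601 and UQCR-11 1017, and the nearest summits to UQCR-6.4L and UQCR-11L were at 7851 and -11228 bp. In complex I, the summits nearest to ND-20L, ND-24L, ND-49L and ND-B14.5AL were at -12129, -18512, -23025 and 110946 bp, while all 4 main genes were bound. ND-51L1 and ND-51L2, both without an intron, had theirs at -2474 and 7169 bp. In complex II, the summits nearest to SdhAL and SdhCL were at -68427 and -81460 bp, and that of SdhBL was nearer, at -759 bp. In complex IV they were at -3298 bp for COX4L, -4000 bp for COX6AL, 9214 bp for COX6AL2 and 16240 bp for COX6CL. In complex V they were at 2398 bp for ATPsynbetaL, the copy of the catalytic subunit gene, 35625 bp for ATPsynGL and -122007 bp for ATPsynCF6L. Of the 23 unbound copies, 19 lay over 1000 bp from any reproducible summit. The same was so for 7096 of the 8006 unbound protein-coding genes, so this distance does not set the copies apart.

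Of the 24 copies, 19 had no summit of any strength within 250 bp in any of the replicate and pooled lists, which include background entries. Over all protein-coding genes this was so for 35.2%, and over the unbound ones for 61.3%. Every main gene had such a summit. The 5 copies with a summit were COX7AL, ATPsynepsilonL, COX7AL2, COX6AL and COX7CL. ATPsynepsilonL ranked 16420, 7631 and 13559 in replicates 1, 2 and 3, COX7AL2 20054, 12674 and 9268, and COX6AL and COX7CL 23947 and 28762 in replicate 1 alone. Apart from COX7AL, then, the copies' summits all lay outside the strongest peaks of each replicate. The median distance from a start site to the nearest reproducible summit was 30 bp for the main genes, 8532.5 bp for the copies and 1202 bp for all protein-coding genes.

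**Figure D3:**
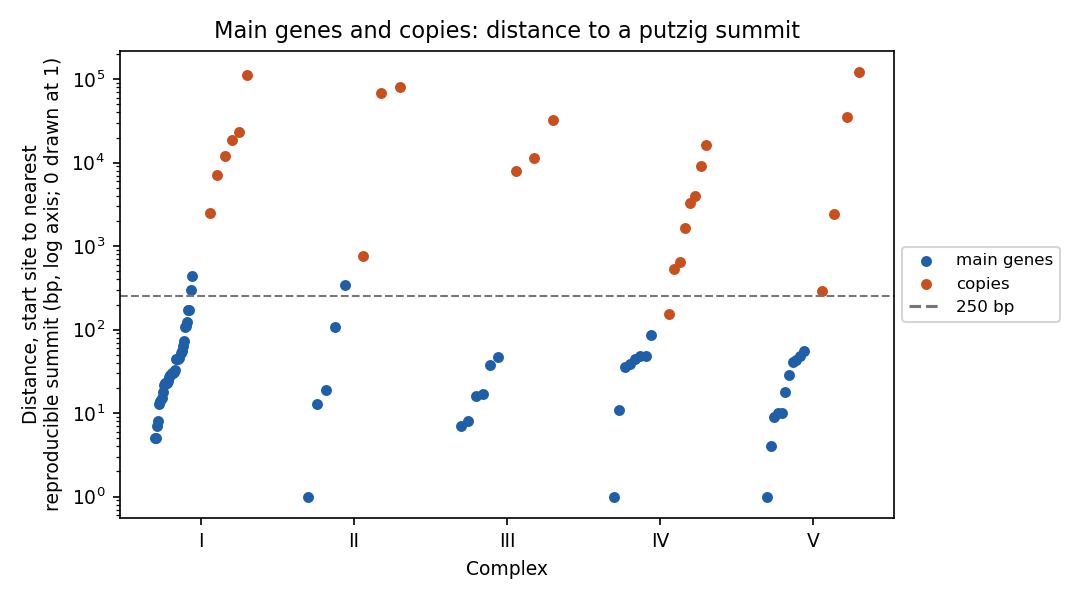
Distance from the nearest start site of each member to the nearest reproducible putzig summit (bp, log axis, with 0 drawn at 1), by complex, for the 64 main genes and the 24 copies; the dashed line marks 250 bp. The main genes lie between 0 and 441 bp and the copies between 154 and 122007 bp.

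The copies closest to a bound main gene, COX5BL and COX7CL, were unbound, whereas COX7AL, 2625 bp from COX7A, was bound. COX5BL starts 122 bp after the end of COX5B on the same strand, and the nearest reproducible summit was at -1670 bp of its TSS. COX7CL starts 281 bp after the end of COX7C, and the nearest summit was at -654 bp. The summit nearest to COX7AL2, at 533 bp, ranked 111 with a signal of 5913, and that nearest to ATPsynepsilonL, at -294 bp, had a signal of 257. Of the 24 pairs, 17 lie on different chromosome arms. Of the 64 main genes 2 have no intron and 12 lie on the X, against 9 and 1 of the 24 copies. Over all protein-coding genes, 22.2% of those without an intron and 46.6% of those with an intron were bound. Of the 11 intronless members 2 were bound, the main genes ND-20 and ATPsyngamma, and of the 77 with an intron 60 were. Outside oxidative phosphorylation, 14 protein-coding genes have a copy ending and a main gene by the same rule. Of their main genes 12 (85.7%) were bound and of these copies 7 (50%), where 42.6% of all protein-coding genes were. Near-identical copies could share or lose reads in the authors' alignment, and whether that lowered the copies' signal was not tested.

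The summits sat at the start site and mostly just upstream. Of the 62 bound members, 50 (80.6%) had their strongest summit upstream of the TSS, against 86.4% of all bound protein-coding genes. The median position was -30 bp, against -44 bp for all bound protein-coding genes. The summit lay outside the gene in 36 members, in a 5′ UTR in 24 and in an intron in 2, ND-39 and ND-49, where it stood at -5 and -46 bp of an internal TSS. The farthest upstream were COX5B, as above, ND-75 at -174 bp, ND-B15 at -173 bp and COX7AL. The ND-B15 summit lay at -55 bp of CG10151 on the other strand.

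**Figure D4:**
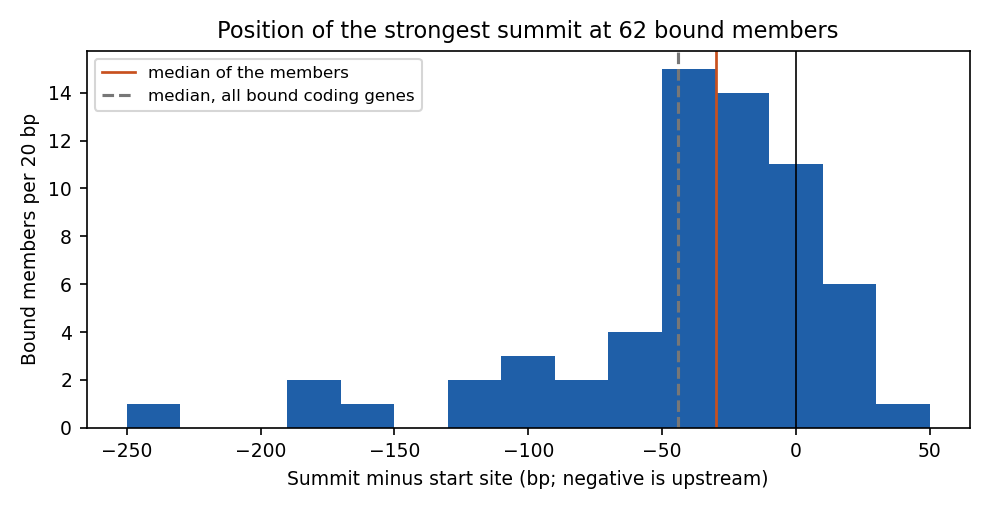
Number of bound members by the position of their strongest reproducible summit relative to the start site (bp along the gene, negative upstream, bins of 20 bp). Most lie close to the start site, with a median of -30 bp (coloured line), against -44 bp over all bound protein-coding genes (dashed line).

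A summit was shared with the TSS of another protein-coding gene at 25 of the 62 bound members (40.3%), and at 39.8% of all bound protein-coding genes. Binding cannot be assigned to either gene of such a pair. The ATPsynF summit lay at -48 bp of ATPsynF and at -78 bp of CG3548. At COX6B it lay at -49 bp of COX6B and of CG18809, which starts at the same base, and at -47 bp of Rpp20, a gene of RNase P, and of CG33932. ND-PDSW shared its summit with msl-2, the dosage compensation gene, at -18 bp of ND-PDSW and -27 bp of msl-2. ATPsynD shared its summit with mRpL55, a mitochondrial ribosomal protein gene, and UQCR-C1 with the cyclin gene CycC. Partners in energy metabolism included Fum1, fumarase, with ND-ASHI, and kdn, citrate synthase, with ND-B16.6. The first summit lay at 23 bp of an internal TSS of ND-ASHI but at -187 bp of Fum1. The other lay at 13 bp of ND-B16.6 but at -241 bp of kdn. None of the bound genes of complex II shared its summit. Partners were named after their values had been seen.

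Core elements were counted in promoters from 250 bp before to 50 bp after the annotated 5′ end of each gene. A DRE was found at 8 of the 61 bound main genes (13.1%) and 0 of the 24 copies, against 19.2% of all bound and 2.04% of all unbound protein-coding genes. Motif 1 was found at 15 of the 61 (24.6%) and 1 of the 24 copies, against 16.9% and 0.912%. The E-box was found at 19 of the 61 (31.1%) and 2 of the 24, against 24.3% and 12.7%. Over all protein-coding genes the shares were 9.36% for the DRE, 7.70% for Motif 1 and 17.7% for the E-box. At least 1 of these 3 was found at 32 of the 61 bound main genes (52.5%) and 3 of the 24 copies, against 51.1% of all bound and 15.3% of all unbound protein-coding genes. Of the bound main genes 29 held none of the 3. Those 29 include ATPsynF and COX6B, the strongest members of complexes V and IV, which also had none within 100 bp of the summit. They also include UQCR-Q, the strongest of complex III, but its summit stood at an internal TSS and had Motif 1 within 100 bp.

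By complex, Motif 1 was at 5 of the 9 bound genes of complex IV (COX5A, COX5B, COX7B, COX4 and COX7AL), at 7 of 32 in complex I and at 2 of 11 in complex V. The E-box was at 12 of 32 in complex I and 1 of 9 in complex IV. The DRE was at 5 of 32 in complex I and at none of the bound genes of complexes II and V. Counts within 100 bp of the summit differed. There Motif 1 was at 2 of 9 in complex IV and 8 of 32 in complex I, and the DRE at 7 of 32 in complex I and 1 of 11, ATPsynE, in complex V. Over the 62 bound members the summit windows held a DRE at 11, Motif 1 at 15 and the E-box at 21, or 17.7%, 24.2% and 33.9%, against 17.4%, 16.1% and 21.4% of all bound protein-coding genes. The median signal was 1991 at the 8 bound members with a DRE and 1757 at those without, and 2247 with Motif 1 and 1731 without. TATAAAA was at 15 of the 61 bound main genes (24.6%) and 3 of the 24 copies, against 23.7% of all bound protein-coding genes. Motif 7, CAGCGCTA, and the nuclear respiratory gene (NRG) element, a palindrome described at fly respiratory genes, had no match in any of the 88 promoters, and 0.574% and 0.875% of all promoters held them. A missing match says only that these letters are not in this window.

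**Figure D5:**
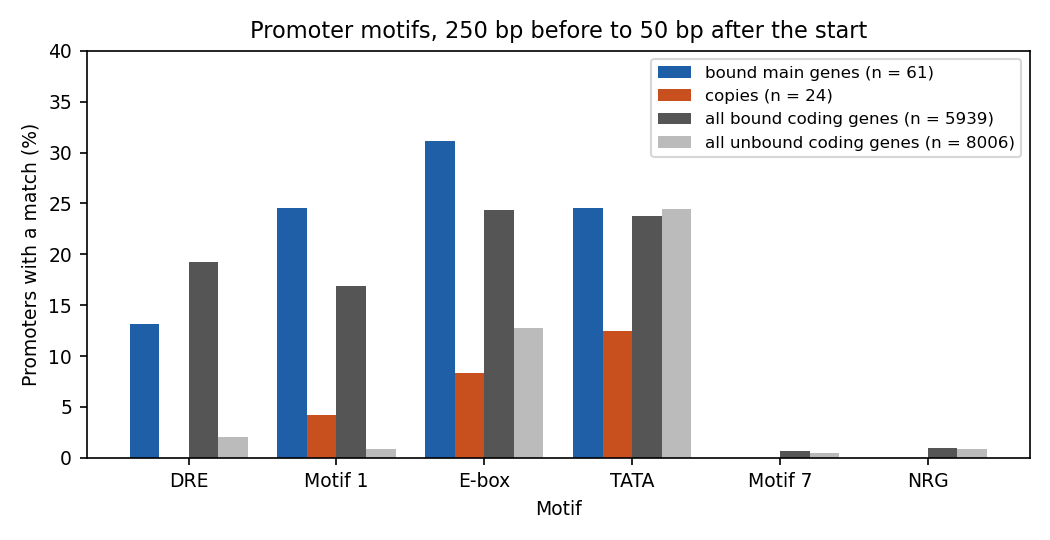
Share of promoters (percent of genes, 250 bp before to 50 bp after the annotated 5′ end) with a match on either strand, for 61 bound main genes, 24 copies, all 5939 bound and all 8006 unbound protein-coding genes. The bound main genes and all bound genes both stand above the unbound genes for the DRE, Motif 1 and the E-box, at 13.1% against 19.2% for the DRE and 24.6% against 16.9% for Motif 1.

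Respiratory genes that the symbols leave out were also bound for the most part. Of 11 further genes for subunits, cytochrome c and their copies, 8 were bound, where 42.6% of all protein-coding genes were. RFeSP, the Rieske iron-sulphur protein of complex III, had a signal of 5702 and ranks of 103, 131 and 189 in replicates 1, 2 and 3, ahead of UQCR-Q in the reproducible list and in replicates 1 and 2 but not in replicate 3. The complex III gene ox had 4939 and Cyt-c1 783. The ATP synthase genes blw, the alpha subunit, and sun, the epsilon subunit, had 3984 and 2247. In complex IV, levy had 2605 and cype 478. Cyt-c-p, the somatic cytochrome c, had 3750 and ranks of 408, 360 and 1194. The 3 unbound genes were Cyt-c-d, the cytochrome c of testis, Cyt-c1L, and knon, an ATPsynD relative, with the nearest reproducible summits at 403, 1510 and -622 bp of the TSS.

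All 8 assembly factors matched by symbol were bound, where 42.6% of all protein-coding genes were. Ccdc56 had 2251, CIA30, for complex I, 1883, and OXA1L, the inner membrane insertase, 1843. Cox17 and Scox, which deliver copper to complex IV, had 959 and 949, and Cox11, Surf1 and Cox10 had 686, 679 and 337. Their median was 954, below the 1517 of all bound protein-coding genes. Of 9 regulators and mitochondrial DNA factors 8 were bound, beside the same 42.6%. The regulators srl, the fly PGC-1, Ets97D and ewg had signals of 4277, 4126 and 3343, and TFAM had 1559. The mitochondrial RNA polymerase gene PolrMT had 2001, mtTFB2 1150 and PolG1, the mitochondrial DNA polymerase, 562. Ccdc56 and mtTFB1 shared 1 summit. The exception was mtSSB, whose nearest reproducible summit lay at -254 bp and which had a summit within the window in replicates 1 and 2, at ranks 3269 and 2119.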

How the data were processed

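Each of the 3 putzig-eGFP ChIP-seq replicates has a peak list of 30000 entries that includes background, and the series has a pooled list and a list thresholded by the irreproducible discovery rate, the reproducible list, with 6522 entries, all in dm6 per the deposited notes. Signal values are deposited in the units of the authors' peak caller, which is not given in the sources used here, and were used within 1 list at a time. The deposited −log10 q value is 4.12 at every reproducible entry and so cannot rank them. The lists carry no read depth, and precision is the spread between replicates. Each reproducible entry is among the 6522 strongest of the pooled list, so it is not independent of the replicates.

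Genes came from Ensembl release 115 (BDGP6) with transposable elements left out. Sequence came from the RefSeq genome, where 99.9% of 16213 annotated start codons read ATG. The strongest summit within 250 bp of any TSS gave a gene's signal. Python 3.11.15, numpy 2.4.6 and pandas 2.3.3 were used, and 100 of 100 simulated summits were recovered with their offset. No test between groups was possible in 1 group, and counts are set beside those over all protein-coding genes. The members and lists were chosen with earlier results of these data known. Named were the strongest and weakest bound genes of each complex, the unbound main genes, the copies with their main genes and the bound genes of the other lists. Partners and intermediate genes were added after their values had been seen. Of 30 listed other symbols 28 matched a gene. Alternatives covered the TSS window and assignment, the peak set, the replicates, the symbol rule and the motif window.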

Additional observations from a re-analysis of the deposited data

How the results depend on the processing

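The number of bound members, 62, was 50 to 69 over the alternatives tried for it: 55 with a window of 100 bp, 69 with 1000 bp, 50 among peaks above the median signal and 65 in the pooled list with background. Leaving out each replicate in turn, and keeping the reproducible peaks found in the strongest of the others, gave 58 to 61. The reproducible list itself still rested on all 3 replicates, so this count could not rise. Of the 17 copies, 1 was bound. This count was 0 with a window of 100 bp and among peaks above the median signal. With the nearest TSS only it was also 0, over all genes or over protein-coding genes. With a window of 1000 bp it was 3. The literal ending, which counts ND-MNLL, gave 2, with or without a digit. Of the 24 copies, 2 had a reproducible summit within 500 bp and 5 within 1000 bp. The members gained in the pooled list, ATPsynepsilonL, COX6AL and COX7AL2, are all among the 24. The median signal of bound members, 1823, was 2037 among peaks above the median signal, 1893 among peaks found in every replicate and 1739 with the nearest protein-coding TSS only, and 1826 to 1893 without 1 replicate. TATAAAA was at 16 bound members in promoters and at 4 within 100 bp of the summit. Summits of 58 bound members lay inside a strongest peak of every replicate, and 31 did when intervals had to overlap by 50% of each. Those 58 include COX5B and leave out ND-B14, the reverse of the 58 members bound in every replicate. The cause of these shifts was not tested, beyond the change in genes or peaks counted. The alternatives on chromosome 4, the literal ending without a digit, the wider copy split and the nearest protein-coding TSS were chosen after seeing the data. No paired analysis was possible because the series has 1 group. Depth is unknown, so a gene without a peak is not shown to lack putzig.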
